A study of Saturnispora dispora and Saturnispora hagleri and Saturnispora mendoncae with 16 samples.

Results

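The hexose transporter orthogroup *HXT* was followed across the 4 *Saturnispora* yeasts of the series and then taken apart into its single genes. An orthogroup is a set of genes inferred to descend from 1 ancestral gene. The members are the genes of 1 orthogroup (OG0000143 of the 5029 in the deposited table), and they are 6 of 20143 annotated genes. It held 1 gene in *Sat. dispora* (Sdis, g001545), 1 in *Sat. hagleri* (Shag, g002249), 2 in *Sat. mendoncae* (Smen, g004100 and g003215) and 2 in *Sat. silvae* (Ssil, g003770 and g002846). The supplementary gene lists name *HXT* for g001545, g002249 and g003770, and the other 3 genes are called *HXT* only because they share the orthogroup. The study's supplementary lists count more hexose transporter genes in these species than this orthogroup holds. The others are not analysed here, so *HXT* below means this orthogroup and not all hexose transporters.

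The study compared a pair of species with a rapid extracellular acidification rate (ECAR) after glucose, Sdis and Shag, with a pair that had a low ECAR, Smen and Ssil. ECAR is a measure of how fast cells acidify their medium, used there as a readout of glycolytic rate. All 4 were unmodified budding yeasts, grown in log phase on synthetic complete medium with 2% glucose (50 ml in a 250 ml baffled flask, shaken at room temperature, started at an OD600 of 0.05). mRNA was sequenced from 4 biological replicates per species, 16 libraries in all. The rapid ECAR species were harvested at an earlier hour to reach the same growth phase, so hour, ECAR class and the descent of the species cannot be told apart.

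Hexose transporters are membrane proteins that let glucose and related sugars pass down their concentration gradient into the cell, the step before hexokinase traps the sugar by phosphorylation. In *S. cerevisiae* they form a large family whose members differ in their affinity for glucose and in the glucose level at which they are expressed. A family may therefore be large in the genome while few of its genes are transcribed in 1 medium, and the level of a family and the levels of its genes are separate measurements.

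Between 6196684 and 13928456 read pairs per library were assigned to genes (median 11266047). Between 2.50% and 16.3% of pairs lay outside annotated genes, with the highest share in Ssil replicate 4, and its *HXT* level lay within the range of the other Ssil libraries. No replicates of a species agreed within counting noise (chi-square per degree of freedom of 4.40 to 333 over 24 pairs), so each was kept as a sample.

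The level of the orthogroup was read first, in transcripts per 1000000 (TPM), in which the counts of all its genes are divided by their summed length. In Sdis *HXT* had 2153, 2149.8, 2469 and 2177 TPM in replicates 1 to 4. In Shag the 4 libraries had 2427, 2576, 2216 and 2520.4 TPM. The libraries of these species overlapped, although replicate 3 of Sdis stood above its 3 fellows. Smen had 763, 711, 678 and 704 TPM, below every library of Sdis and Shag. Ssil had 207, 222, 215 and 218 TPM, the lowest values of the series.

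The order of the levels was thus Shag and Sdis, then Smen, then Ssil, and each step but the first was larger than the spread between replicates. The mean of Sdis was 3.13 times that of Smen and 10.4 times that of Ssil, and that of Shag was 3.41 and 11.3 times theirs. Smen in turn stood 3.31 times above Ssil. The folds depended on the scaling, most of all against Ssil. After median-ratio rescaling (limma on the log2 scale) Sdis stood 21.7, Shag 17.5 and Smen 5.37 times above Ssil. Sdis then stood 4.04 and Shag 3.26 times above Smen. In all these folds the counts of Smen and Ssil are divided by the length of 2 genes, which is taken up below. None of these 5 pairs overlapped, and each reached p = 0.0286 in the exact permutation test (two-sided), the lowest value possible with 4 libraries a side (0.0343 adjusted over 18 such comparisons). Libraries did not overlap in 77.9% of orthogroups for Smen and Sdis, 88.8% for Ssil and Sdis, 59.7% for Shag and Smen, 75.9% for Shag and Ssil and 87.7% for Ssil and Smen, so the lack of overlap is common here. Shag and Sdis, which overlapped where 54.6% of orthogroups did not, had a ratio of 1.09 (exact permutation p = 0.114), and their order depended on how libraries were scaled, as the closing section gives. A test that misses the threshold does not show that they were equal.

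These differences have to be read against how far the species differ in general. With limma on log2(TPM + 1), 84% of 4232 orthogroups tested were called between rapid and low ECAR species at an adjusted p under 0.05, so a call alone says little about *HXT*. In TPM, 23.8% were called higher in rapid ECAR species and 5.65% were called higher in every one of the 4 pairs that set a rapid against a low ECAR species. After median-ratio rescaling these shares were 43.5% and 13.2%, so how common this direction was depends on the scaling. *HXT* was among these, with a mean log2 difference of 2.57 (SE 0.05) that ranked 44 of 4232, where the median orthogroup had -0.46. This SE comes from the spread between replicates within species and not from that between the species of a class. In 4.73% of orthogroups, *HXT* included, all 8 libraries of the rapid ECAR species lay above all 8 of the low ECAR species.

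Within each class the picture was uneven. Ssil minus Smen was -1.72 (SE 0.07, limma adjusted p = 1.5e-12), at percentile 5.65 of the orthogroups, whose median was 0.68. In that pair 22.1% of orthogroups were called lower in Ssil in TPM, and 41.5% after median-ratio rescaling, where the median was -0.01 and *HXT* had -2.42. Shag minus Sdis was 0.12 (SE 0.07, limma adjusted p = 0.141), while 74.1% of orthogroups were called between these species. *HXT* was not among them in TPM. After median-ratio rescaling it was called lower in Shag (-0.31, limma adjusted p = 0.0104), as were 34.9% of orthogroups. After quantile normalization it was called higher (0.38, limma adjusted p = 0.00877), as were 36.3%.

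Expressed as a rank by TPM within a library, *HXT* was between 106 and 112 in Sdis and between 58 and 104 in Shag. It fell to between 250 and 258 in Smen and between 756 and 817 in Ssil. The ranks of the rapid ECAR species did not overlap those of the low ECAR species, and they do not depend on how libraries are scaled to each other. The ranks do depend on length, since in Smen and Ssil the counts are divided by the summed length of 2 genes. By counts, without length, the gene of the orthogroup with most counts ranked between 34 and 43 in Sdis and between 18 and 29 in Shag. It ranked between 48 and 61 in Smen and between 205 and 229 in Ssil. Of all pairs in genes, *HXT* took 0.377% to 0.424% in Sdis libraries and 0.383% to 0.417% in Shag libraries. The share was 0.231% to 0.261% in Smen and 0.0605% to 0.0648% in Ssil.

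Replicates of a species agreed well for *HXT*. The coefficient of variation of its TPM was 6.92% in Sdis, 6.51% in Shag, 4.99% in Smen and 2.96% in Ssil. The median over orthogroups was 10.9%, 20.9%, 6.92% and 6.48% in the same order. In Shag, whose libraries scattered most, 6.97% of orthogroups varied less than *HXT*.

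**Figure D1:**
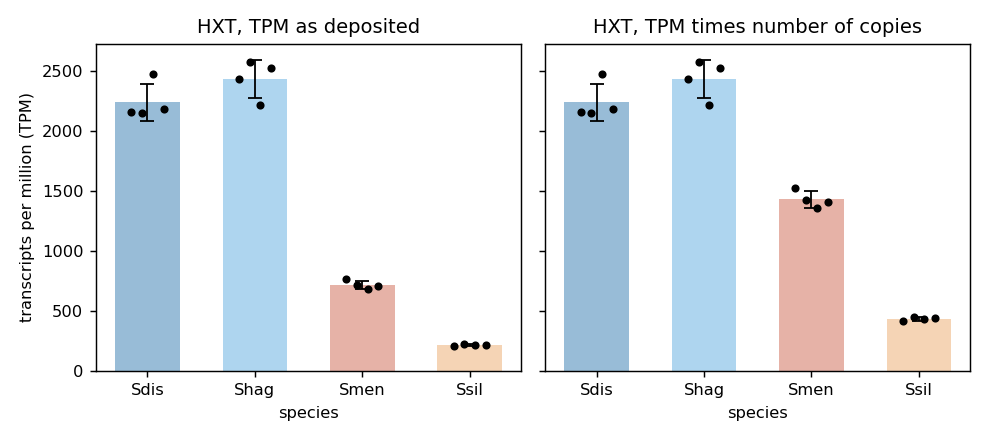
*HXT* in TPM as deposited (left) and in TPM multiplied by the number of genes the orthogroup has in the species (right), with bars for the mean, error bars for the SD and dots for the 4 libraries of each species on a linear axis. The libraries of Smen (678 to 763 TPM on the left, 1357 to 1526 on the right) lay below those of Sdis and Shag and above those of Ssil on both scales.

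The single genes behind the orthogroup were then examined in read counts. g001545, the only gene of the orthogroup in Sdis, had 47174, 46075.5, 43514.5 and 37986 counts in replicates 1 to 4, where fractions come from pairs that fit several genes. g002249, its only gene in Shag, had 35729.5, 47835, 46438 and 43869 counts. Among all genes of their species, g001545 ranked between 34 and 43 by counts and g002249 between 18 and 29. Each was thus among the most heavily sequenced genes of its species.

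In both low ECAR species, the counts were very unevenly divided between the genes. In Smen, g004100 had 26182.5, 33527, 29602.5 and 25518 counts. The other gene, g003215, had 1, 11, 6 and 3 counts in the same libraries. In replicates 1 and 4 g003215 did not exceed 3 counts, the level set as the limit of detection, and it ranked between 4810 and 4875 of 4926 genes. g004100 ranked between 48 and 61, so 1 gene of the pair was among the most highly counted genes of Smen and the other near the limit of detection.

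Ssil showed the same division at a lower level. g003770 had 6551.5, 7340, 7333 and 3930.5 counts, and g002846 had 57, 71, 85 and 36. All 4 counts of g002846 lay well above the limit of detection. g003770 ranked between 205 and 229 of 5004 genes and g002846 between 4686 and 4720. The lowest count of each fell in replicate 4, which had the fewest pairs in genes.

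Summed over libraries, g003215 held 21 of 114851 counts of its orthogroup in Smen, or 0.0183% (exact 95% binomial interval 0.0113% to 0.0279%). g002846 held 249 of 25404 counts in Ssil, or 0.980% (0.863% to 1.11%). These intervals cover counting error only. The share of g002846 ranged from 0.863% to 1.15% over the libraries of Ssil. This spread was not told apart from counting error (exact multinomial test over libraries, p = 0.359), which does not show that counting was its only source. For g003215 the same exact multinomial test gave p = 0.0535 on 21 counts.

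The minor genes of the low ECAR species differed from each other as well. g003215 had 0.409 ± 0.295 CPM (counts per 1000000 counts in genes, mean ± SD, n = 4) and g002846 had 6.11 ± 0.830 CPM. The groups did not overlap and the exact two-sided permutation p was 0.0286, the smallest possible. Accordingly the major gene's share, 99.98% in Smen and 99.03% in Ssil, was lower by 0.95 percentage points in Ssil (exact two-sided permutation p = 0.0286). These p-values say little, since the genes were sorted into major and minor by the same counts and g003215 was near the limit of detection. Libraries of Ssil and Smen also did not overlap in TPM in 87.7% of all orthogroups. Which gene of Smen corresponds to which gene of Ssil is not given in the sources used here, and the genes were paired by their level alone.

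The summed coding lengths were 1077 codons in Smen and 1121 codons in Ssil, and the single genes of Sdis and Shag had 530 and 528 codons. For the minor gene to equal the major one per length, it would have to be 0.197 codons long in Smen and 10.99 codons long in Ssil. The lengths of the single copies could not be recovered from their sum. The counts of both minor genes were whole numbers in all 8 libraries, so no pair shared with another gene in fractions was visible there. Whether reads were lost between similar copies was not tested.

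**Figure D2:**
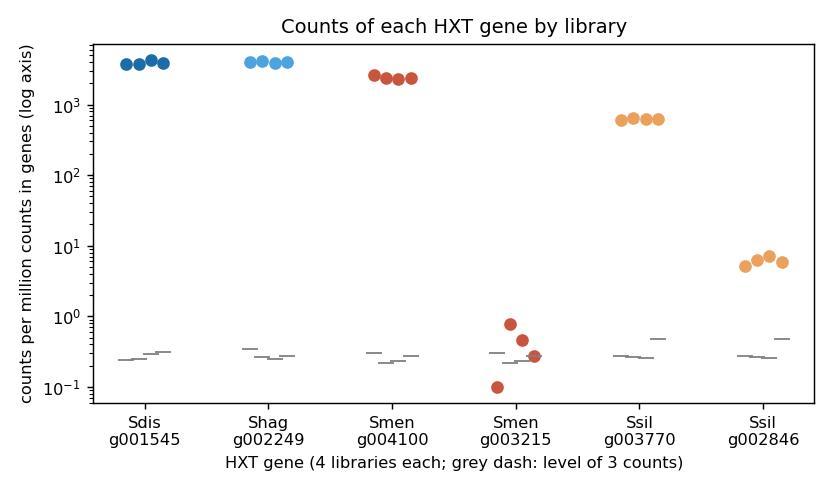
CPM (log axis) for each of the 6 *HXT* genes, with 1 dot per library and a grey dash at the level of 3 counts in that library. The major genes lay between 600 and 4239 CPM, g002846 of Ssil between 5.22 and 7.19 CPM, and g003215 of Smen between 0.0997 and 0.790 CPM, at or below the dash in replicates 1 and 4.

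How unusual is such a division? In Smen, 108 linked orthogroups held exactly 2 genes, and the gene with more counts had a median share of 79.3% (quartiles 65.0% and 93.8%). *HXT* had the most unequal division of the 108. In Ssil, 120 orthogroups held 2 genes, with a median share of 77.7% (quartiles 60.9% and 90.0%), and 9 of them, *HXT* included, were at or above its share. A share over 99%, a level chosen with the values of *HXT* known, occurred in 9 of 108 orthogroups in Smen (8.33%) and in 9 of 120 in Ssil (7.50%). Of the 12 orthogroups with 1 gene in each rapid and 2 in each low ECAR species, *HXT* was the only one over 99% in both Smen and Ssil. Of all 55 orthogroups with 2 genes in both of these species there were 2, *HXT* and OG0000062 (99.97% in Smen and 99.89% in Ssil), which has 2 genes in each rapid ECAR species too and is named here after its values were seen. Genes without a single count cannot be seen by this linking, and these values carry no test.

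**Figure D3:**
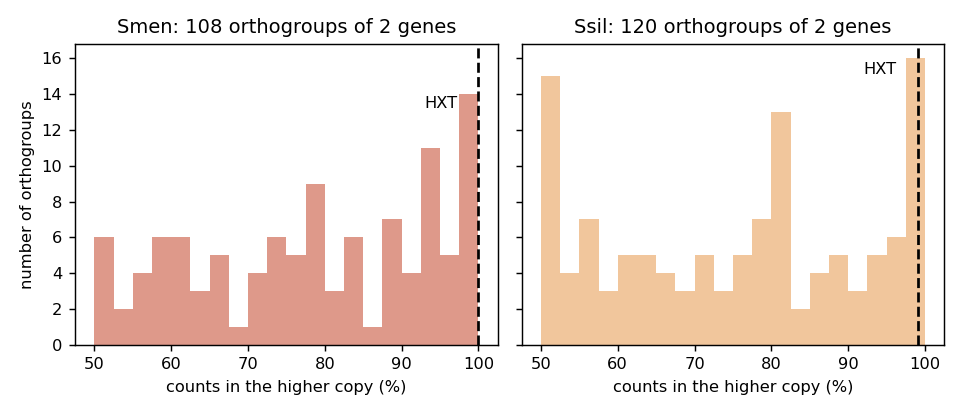
Number of orthogroups with exactly 2 genes by the percent of their counts that fell in the gene with more counts, for Smen (left, 108 orthogroups) and Ssil (right, 120). The dashed line marks *HXT*, at 99.98% in Smen and 99.02% in Ssil from counts summed over libraries, in the last bin of both panels.

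This division bears on the level of the orthogroup. TPM divides the counts of *HXT* by the length of 2 genes in Smen and Ssil, although nearly all of those counts came from 1. To put them over the mean length of a copy, TPM was multiplied by the number of genes. *HXT* then had 1428 ± 71.2 in Smen and 431 ± 12.8 in Ssil, with Sdis and Shag unchanged at 2237 ± 155 and 2435 ± 159 (mean ± SD, n = 4). The excess over Smen shrank to 1.57 times in Sdis and 1.70 times in Shag, and that over Ssil to 5.19 and 5.65 times. All 4 comparisons kept an exact two-sided permutation p of 0.0286, and no library of a rapid ECAR species fell to the range of a low ECAR species.

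The major genes alone gave much the same picture. In CPM, without any length, g001545 had 3921 ± 220 and g002249 had 4000.4 ± 145. g004100 had 2422 ± 132 and g003770 had 624 ± 18.4 (mean ± SD, n = 4). g001545 exceeded g004100 by 1.62 times and g003770 by 6.28 times, and g002249 exceeded them by 1.65 and 6.41 times (exact two-sided permutation p = 0.0286 each). g001545 and g002249 overlapped (ratio 1.02, exact permutation p = 0.6). In edgeR the major or single gene differed by 2.00 on the log2 scale between rapid and low ECAR species (adjusted p = 3.2e-13), where 83.9% of rows were called. No fold is given for the minor genes against the single genes, since they were picked as the lower of a pair and g003215 was near the limit of detection.

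On the log2 scale, rapid minus low ECAR species came to 2.57 in TPM, 1.57 in TPM times copies and 1.65 in CPM without gene length. Each was called in limma, but the place of *HXT* among the named genes moved. In TPM it lay above *HXK* (2.31), the hexokinase gene. In TPM times copies it lay below *HXK* (2.31), the phosphoglycerate mutase gene *GPM* (1.78) and the aldolase gene *FBA* (1.77). It still lay above the enolase gene *ENO* (0.96), the phosphofructokinase genes *PFK* (0.88), the alcohol dehydrogenase genes *ADH* (0.80) and the glyceraldehyde-3-phosphate dehydrogenase gene *TDH* (0.56). Against all orthogroups, *HXT* moved from percentile 98.96 in TPM to percentile 96.3 in TPM times copies.

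The 12 orthogroups with the same copy numbers were set beside it. Their median difference was 0.39 in TPM and -0.57 in TPM times copies, while the medians over all orthogroups were -0.46 and -0.47. *HXT* had the highest difference of the 12 on both scales, and the next had 1.53 in TPM and 0.53 in TPM times copies.

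**Figure D4:**
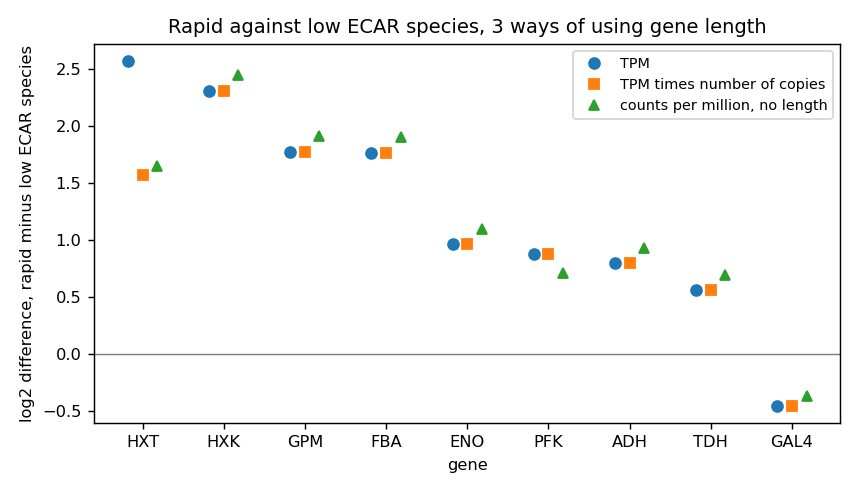
Log2 difference of the rapid minus the low ECAR species for *HXT* and 8 named genes in TPM, in TPM times the number of copies and in CPM without gene length. *HXT* drops from 2.57 to 1.57 and 1.65, whereas *HXK* stays at 2.31 and moves to 2.45.

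The neighbours of *HXT* in sugar breakdown were read next, from 9 genes that the supplementary lists name. *TPI*, for triosephosphate isomerase, has no value in Sdis, which left 8. Of these, 7 were called higher and 1 lower in rapid than in low ECAR species, against 23.8% and 60.2% of all orthogroups. After median-ratio rescaling it was 7 and 0, against 43.5% and 40.9%. In TPM, 5 were higher in all 4 species pairs (*HXK*, *FBA*, *TDH*, *GPM* and *ENO*) and 0 lower, against 5.65% and 20.8%. With median-ratio rescaling these were 6 and 0, against 13.2% and 14.7%. The single lower one was *GAL4* (-0.45), which encodes a zinc cluster transcription activator known from galactose use in *S. cerevisiae*, and its sign changed to 0.05 when libraries were rescaled by their median ratio. The median of the 8 was 0.92. They were named from lists on predicted promoter sites and need not stand for glycolysis as a whole.

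Between Smen and Ssil these genes were called about as often as orthogroups in general. Of the 8, 5 were called higher and 1 lower in Ssil than in Smen, beside 62.1% and 22.1% of all orthogroups, and their median was 0.86 beside 0.68 over all. After median-ratio rescaling 4 were higher and 3 lower, beside 41.8% and 41.5% of all orthogroups, and their median was 0.16 beside -0.01. *HXT* was lower in Ssil under both. The 1 that was lower with it in TPM was *HXK*, by 0.77 (limma adjusted p = 4.0e-07). *HXK* encodes the enzyme that acts on the sugar right after the transporter.

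The balance between *HXT* and its neighbours was measured as a ratio of TPM within each library, which does not change with the scaling of libraries. *HXT* to *HXK* was 2.21 ± 0.140 in Sdis, 1.88 ± 0.0761 in Shag, 2.38 ± 0.0505 in Smen and 1.23 ± 0.152 in Ssil (mean ± SD, n = 4). Every library of Ssil lay below every library of the other species. *HXT* to *PFK* was 4.32 ± 0.366 in Sdis, 3.55 ± 0.340 in Shag, 3.76 ± 0.199 in Smen and 0.389 ± 0.0278 in Ssil. Here too every library of Ssil lay below every library of the other species. *PFK*, whose product commits sugar to glycolysis, had more TPM than *HXT* only in Ssil.

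For lower glycolysis, *HXT* to *GPM* was 0.281 ± 0.0148 in Sdis, 0.305 ± 0.0463 in Shag, 0.312 ± 0.0110 in Smen and 0.0908 ± 0.0113 in Ssil. *HXT* to *ENO* was 0.178 ± 0.0103, 0.193 ± 0.0181, 0.109 ± 0.00403 and 0.0340 ± 0.00511 in the same order. *HXT* to *TDH*, the most abundant of these mRNAs, was 0.0721 ± 0.00146, 0.0745 ± 0.00506, 0.0384 ± 0.00164 and 0.00863 ± 0.000675. With *FBA*, Smen stood above both rapid ECAR species, at 0.416 ± 0.0129 against 0.266 ± 0.0136 in Sdis and 0.243 ± 0.00602 in Shag, with 0.0515 ± 0.00935 in Ssil.

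Over 6 ratios and 6 species pairs, 27 of 36 comparisons reached the smallest exact two-sided permutation p of 0.0286 (0.0381 adjusted over the 36). Every comparison of Ssil with another species was among them, with *HXT* lower relative to its neighbour in Ssil. The comparisons between Shag and Sdis reached it for *HXK* only, with Shag lower by 0.23 on the log2 scale. Between Smen and the rapid ECAR species, *HXT* in TPM was lower in Smen relative to *TDH* and *ENO* and higher relative to *FBA*, but the summed length of its 2 genes enters these values. The other comparisons of Smen that reached it were with Shag for *HXK* (Shag minus Smen -0.34) and with Sdis for *GPM* (Smen minus Sdis 0.15). The smallest p means only that the libraries of a pair did not overlap. In TPM this held for 54.6% (Shag and Sdis) to 88.8% (Ssil and Sdis) of orthogroups. The share for ratios of other orthogroups was not computed, so the count of 27 alone says little about *HXT*.

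The copy numbers change this balance too. With TPM times copies, *HXT* to *HXK* was 4.76 ± 0.101 in Smen and 2.47 ± 0.304 in Ssil, against 2.21 in Sdis and 1.88 in Shag. Averaged over species, rapid minus low ECAR species then turned from 0.26 to -0.74 on the log2 scale, and those with *GPM* and *FBA* also changed sign. The mean ratio of Smen then lay below that of neither rapid ECAR species for any neighbour. *HXT* to *ENO* turned to 0.218 ± 0.00807 in Smen, above every Sdis library and overlapping Shag. It was 0.624 ± 0.0221 with *GPM*, 0.833 ± 0.0258 with *FBA* and 3.76 ± 0.199 with *PFK* in Smen, each above every library of Sdis and Shag on this scale. *PFK* itself has 2 genes in each species, so its TPM was multiplied as well. That left its ratio in Smen and Ssil unchanged. The ratio to *PFK* moved from 4.32 to 2.16 ± 0.183 in Sdis and from 3.55 to 1.78 ± 0.170 in Shag. With *TDH*, *HXT* stood at 0.0768 ± 0.00329 in Smen, within the range of the rapid ECAR species, and at 0.0173 ± 0.00135 in Ssil. The low ratios of Ssil to *TDH*, *ENO*, *GPM*, *FBA* and *PFK* remained below those of the 3 other species on this scale, and its ratio to *HXK* did not.

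**Figure D5:**
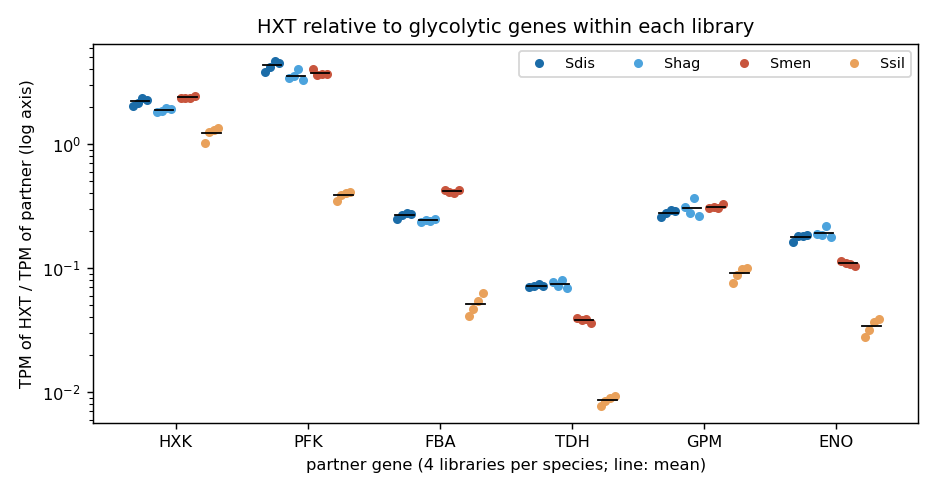
TPM of *HXT* divided by the TPM of each of 6 glycolytic genes in the same library (log axis), with 1 dot per library and a line at the mean of each species. Ssil lies below the other species in all 6 columns, from 1.23 with *HXK* to 0.00863 with *TDH*.

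The genes whose pattern was most like that of *HXT* were ranked by Pearson's r of log2(TPM + 1) over the 16 libraries, which fall into 4 species and so hold few independent points. The highest were OG0003941 (r = 0.991) and OG0000286 (r = 0.986), and the sources used here pair neither with a gene name. OG0003941 had 63.3 ± 2.51 TPM in Sdis, 68.9 ± 3.04 in Shag, 33.5 ± 2.13 in Smen and 16.8 ± 1.97 in Ssil (mean ± SD, n = 4). The lowest were OG0000665 (r = -0.995) and OG0002263 (r = -0.992). OG0000665 had 25.4 ± 2.07, 24.2 ± 3.24, 80.2 ± 7.90 and 212 ± 3.91 TPM in the same order of species. An r over 0.9 was found in 2.46% of the other orthogroups and an r under -0.9 in 10.9%.

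Of the named genes, *HXK* was the most like *HXT* (r = 0.972, rank 11 of 4231). *GPM* (r = 0.883, rank 127) and *ENO* (r = 0.882, rank 128) followed. *FBA* had 0.598, *TDH* 0.574 and *PFK* 0.233, and *ADH* had -0.05. *GAL4* had -0.76. These values describe how the species means are ordered, and with 4 species many orthogroups share an order.

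In these bulk libraries, less *HXT* mRNA per cell and fewer cells that express it cannot be told apart. Each ECAR class is made of 2 species, so the tests compare these species and their replicates and not the classes at large.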

How the data were processed

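mRNA of 4 *Saturnispora* species, 4 replicates each, was sequenced. The authors trimmed the reads with Trimmomatic 0.30, aligned them with HISAT2 2.1.0 to each species' genome and counted pairs per gene with HTSeq 2.0.3. The deposited values per gene are expected counts, since pairs that fit several genes were shared in fractions. The authors computed the deposited TPM with edgeR from counts and lengths summed over each OrthoFinder orthogroup. Genome builds are not given in the sources used here. Pairs without a gene (4.10% to 19.0%) were left out.

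A gene, or a sum of genes, was linked to an orthogroup when its counts were proportional to the TPM over the 4 libraries to within 1e-08. Linked orthogroups carried over 99% of the TPM. The lengths that follow were put on the scale that brought those of linked single genes above a count cut-off nearest to whole codons. On this scale, at least 99.5% of these same genes had whole numbers of codons (within 0.001). The linking and the fits were tested on simulated data.

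The main test was limma 3.58.1 (R 4.3.3) on log2(TPM + 1), 16 libraries in 1 fit with a mean per species and a variance trend, over the 4232 orthogroups that had a value in each species and averaged 5 TPM or more. Adjustment was by Benjamini-Hochberg, with a threshold of 0.05. Copies were tested with edgeR 4.0.16 (quasi-likelihood, TMM) on counts rounded to whole numbers, 1 row per linked orthogroup (4256 tested). Single values were compared with exact permutation tests (scipy 1.17.1). Alternatives were other pseudocounts, filters, scalings, uses of gene length, a replicate block, DESeq2 1.42.0 and each library left out. The named genes were *HXT* with its gene IDs, *GAL4*, *ADH*, the glycolytic genes *HXK*, *FBA*, *PFK*, *TPI*, *GPM*, *TDH* and *ENO*, and the 2 orthogroups of highest and the 2 of lowest correlation with *HXT*. The members and lists were chosen with earlier results of these data known.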

Additional observations from a re-analysis of the deposited data

Results flagged for a closer look

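Of 38 groups of 4 libraries looked at, 2 held a library far from its fellows by Dixon's criterion, where chance gives about 1 in 20. *HXT* had 2469 TPM in Sdis replicate 3, against 2149.8 to 2177 TPM in the other Sdis libraries. The ratio of *HXT* to *PFK* in Smen replicate 1 was 4.06, against 3.63 to 3.70 in the other Smen libraries. Without Sdis replicate 3, the level of *HXT* was still called against both low ECAR species in limma (log2 differences of -1.60 for Smen and -3.32 for Ssil minus Sdis). Without Smen replicate 1, the ratio of *HXT* to *PFK* as rapid minus low ECAR species was 1.71 on the log2 scale, beside 1.69 with it, and this was not tested.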

How the results depend on the processing

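*HXT* stayed higher in rapid than in low ECAR species, past the threshold, under all 12 other settings (1.57 to 3.08) and with each library left out (2.54 to 2.59), and so did each of the 4 rapid to low species pairs and Smen against Ssil. Shag minus Sdis depended on the setting: it was -0.31 with median-ratio rescaling (limma adjusted p = 0.0104), -0.28 in edgeR with gene length as an offset (adjusted p = 0.0179), -0.32 in DESeq2 (adjusted p = 0.00198) but 0.38 after quantile normalization (adjusted p = 0.00877 in limma), and over all its other settings the adjusted p reached 0.390. With each library left out it ranged from 0.094 to 0.17, and it was called only without Shag replicate 3 (limma adjusted p = 0.0373). Ssil minus Sdis ranged from -4.46 to -2.37 over the other settings, Shag minus Ssil from 2.49 to 4.15, Smen minus Sdis from -2.02 to -0.65, Shag minus Smen from 0.73 to 2.05 and Ssil minus Smen from -2.44 to -1.68. The edgeR difference of the major genes from the single genes stayed past the threshold under 5 other settings (1.66 to 2.08). The median of all orthogroups for rapid minus low ECAR species moved from -0.46 in TPM to 0.03 with median-ratio rescaling, and the orthogroups called higher and lower from 1008 and 2546 to 1839 and 1732. The counts of listed genes after this rescaling were added after the data were seen. Relative to the median, *HXT* stood at 3.03 and 3.04.

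The difference of the major gene's share between Ssil and Smen ranged from -0.99 to -0.89 points with 1 library left out, where 4 libraries against 3 allow no exact p under 0.0571. The ratio of *HXT* to its neighbours, as rapid minus low ECAR species on the log2 scale, was -0.80 (*HXK*), 0.94 (*PFK*), -0.25 (*FBA*), 0.96 (*TDH*), -0.27 (*GPM*) and 0.55 (*ENO*) in counts without gene length. In TPM times copies it was -0.74, 0.69, -0.19, 1.01, -0.20 and 0.61. By construction, in TPM times copies the mean length of a copy takes the place of the summed length. In counts without gene length no length enters.

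Same-numbered replicates of different species did not deviate together (r of -0.33 to 0.38 over 24 pairs of libraries, 8 over 0.1, 6 best with their own number). The replicate block changed no call of *HXT*. In a paired sign-flip test, which cannot go below 0.125, the share differed by -0.95 points (exact p = 0.125). Counts of g003215 are too few to tell its level from the limit of detection in 2 of 4 libraries.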
